A study of Mus musculus with 12 samples.

Results

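Oligodendrocyte lineage transcription factors are the nuclear proteins that specify the myelin-forming cells of the CNS and drive their differentiation. The 8 genes described here were chosen by symbol, as the rows Olig1, Olig2, Sox10, Sox8, Nkx2-2, Nkx6-2, Zfp488 and Zfp536 among the 21937 genes of the deposited table. Their transcripts were measured by Illumina RNA-Seq in myelin, the membrane sheath that oligodendrocytes wrap around axons, enriched from the brains of male, wild-type c57Bl6/N mice. There were 4 age groups, namely P18, P75, 6 months and 24 months, with 3 libraries in each and 12 in all. The mice of all groups shared strain, sex and genotype, and age was the only labelled difference. The fraction is a light-weight membrane preparation and not a population of sorted cells, so it also carries RNA of neurons, astrocytes and other cells. In such bulk RNA a fall of a transcript through fewer cells of a type cannot be told apart from a fall through less RNA per cell.

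Olig1 and Olig2 are basic helix-loop-helix proteins that bind E-box sequences in DNA. Olig2 is required to specify the lineage, and Olig1 is known for its role in maturation and repair. Sox10 and Sox8 belong to the SoxE group of high-mobility-group proteins, of which Sox10 is required for terminal differentiation and activates myelin genes. Nkx2-2 and Nkx6-2 are homeodomain proteins, and Zfp488 and Zfp536 are zinc finger proteins that act mainly as repressors. As these proteins work in the nucleus of the cell body, their transcripts are not those of classical myelin constituents.

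Most of the lineage factors were most abundant in young myelin and declined early in life. From P18 to P75, Olig1, Olig2, Sox10, Sox8, Nkx2-2 and Nkx6-2 fell, which made 6 of the 8 factors, while 22.9% of the 14634 genes tested fell and 25.9% rose. The largest of the 6 falls was that of Olig2, from a mean normalized read count of 1738 ± 107 (SD, n = 3) to 699 ± 59.4. Zfp488 and Zfp536 were not called changed in that interval. Over the whole range of ages, from P18 to 24 months, the same 6 factors fell (34.3% of genes tested fell and 34.7% rose) and the same pair of zinc finger genes was not called. A gene was called changed at a Benjamini-Hochberg adjusted p under 0.1 in a limma fit over every gene whose counts averaged 10 or more across the libraries, and all 8 factors passed this filter.

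**Figure D1:**
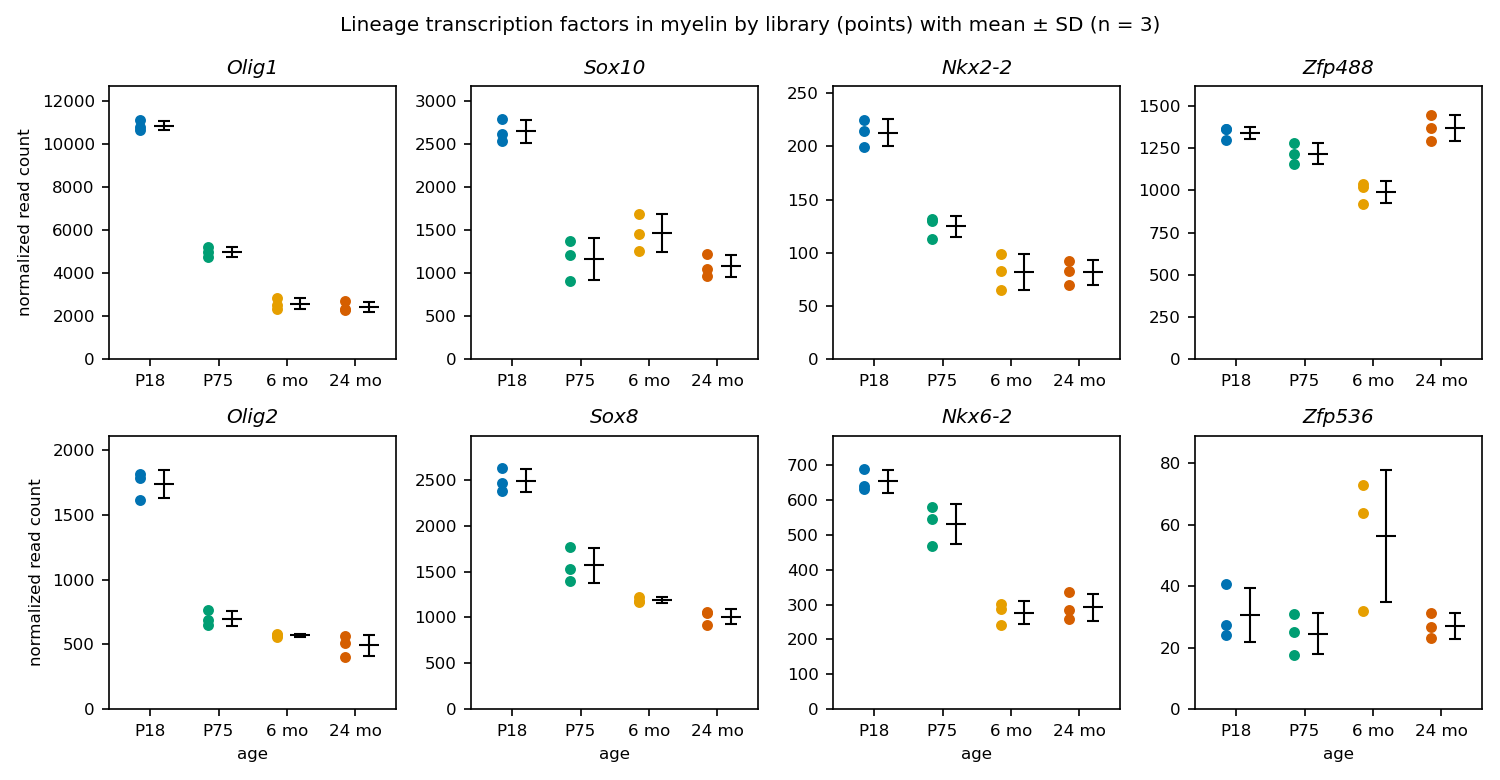
Normalized read count (linear axis from 0) of each of the 8 lineage factors by age, with 1 point per library and the mean ± SD of the 3 libraries beside the points. Olig1 descends from P18 to 6 months without overlap between the ages, Zfp488 is lowest at 6 months, and Zfp536 is low throughout with 2 of 3 libraries at 6 months above all others.

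The libraries held 20299052 to 27214385 reads on genes. Mbp, the myelin basic protein gene, took 9.47% to 20.8% of the reads at P18 and 4.76% to 8.48% at the later ages. The tissue was checked by its defining markers, and the myelin glycoprotein gene Mog had a mean normalized read count of 7199 ± 1599 at P18. Markers of other cells were present too. The neuronal Snap25 stood at 109010 ± 11310 at P18, the astrocytic Gfap at 10953 ± 3822, the precursor marker Pdgfra at 682 ± 84.2, the microglial Aif1 at 284 ± 48.0 and the endothelial Cldn5 at 186 ± 19.7. P18 replicate 3 held the least Mbp and P18 replicate 2 the most of that age, and leaving out either left the count of changed factors from P18 to P75 at 5 or 6.

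The genes lie on 6 chromosomes of the mouse genome build NCBIM37 (mm9). Olig2 (chr16:91225795-91228922, plus strand, 2 exons) and Olig1 (chr16:91270014-91272184, plus strand, 1 exon) are neighbours that lie 41091 bases apart. Sox10 is on chr15:78985343-78994920 and Sox8 on chr17:25702837-25707631, both on the minus strand. Zfp488 lies on chr14:34780256-34791950 and the long Zfp536 gene on chr7:38103693-38554771, both on the minus strand. Nkx2-2 (chr2:147003282-147019979, minus strand) shares 278 exonic bases, 9.67% of its merged exons, with the antisense gene Nkx2-2as. Nkx6-2 (chr7:146765276-146768696, minus strand) shares 245 exonic bases, 12.9% of its merged exons, with Inpp5a on the opposite strand. Whether reads were counted by strand is not given in the sources used here, so the values of Nkx2-2 and Nkx6-2 are uncertain to that extent.

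Promoter sequences from RefSeq (build GRCm38.p6) were found for 6 of the 8 factors, and Olig1 and Sox10 had no entry. The 250 bases before the start are shown for Olig2 and Nkx2-2, which fell with age, and for Zfp488 and Zfp536, which were not called from P18 to P75 or to 24 months. Each is written 5′ to 3′ on the strand of the gene, and capitals mark an E-box (CANNTG, the letters bound by basic helix-loop-helix proteins) or a SOX motif (ACAAAG or ACAATG), on either strand. The windows are chr16:91225300-91225549 (plus strand), chr2:147186403-147186652, chr14:33978765-33979014 and chr7:37769753-37770002 (all minus strand).
Olig2: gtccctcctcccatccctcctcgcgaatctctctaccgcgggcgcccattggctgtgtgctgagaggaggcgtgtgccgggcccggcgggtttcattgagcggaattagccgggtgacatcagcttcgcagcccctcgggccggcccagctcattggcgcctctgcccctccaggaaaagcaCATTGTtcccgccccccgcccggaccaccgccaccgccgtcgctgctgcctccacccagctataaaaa
Nkx2-2: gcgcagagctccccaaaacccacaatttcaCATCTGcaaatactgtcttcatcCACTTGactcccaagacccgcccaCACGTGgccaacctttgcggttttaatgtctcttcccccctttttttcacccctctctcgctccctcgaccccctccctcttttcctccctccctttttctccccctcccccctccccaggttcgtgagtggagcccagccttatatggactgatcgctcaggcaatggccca
Zfp488: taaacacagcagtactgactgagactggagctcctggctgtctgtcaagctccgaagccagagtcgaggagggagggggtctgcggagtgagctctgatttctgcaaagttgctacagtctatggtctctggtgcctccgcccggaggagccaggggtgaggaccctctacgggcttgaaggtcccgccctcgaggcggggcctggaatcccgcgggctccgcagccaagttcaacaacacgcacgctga
Zfp536: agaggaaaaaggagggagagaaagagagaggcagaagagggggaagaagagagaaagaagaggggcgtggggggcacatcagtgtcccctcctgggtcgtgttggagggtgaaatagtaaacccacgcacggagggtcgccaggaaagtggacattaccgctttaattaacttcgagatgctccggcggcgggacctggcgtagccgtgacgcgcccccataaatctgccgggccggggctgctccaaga
Nkx2-2 held 3 E-boxes, Sox8 and Nkx6-2 held 1 each, and the other promoters had no match. Of all 32851 promoter windows of this length, 66.2% held an E-box. The SOX motif occurred once, in Olig2, and 25.2% of all windows held it. The GC box GGGCGG was found in Olig2, Sox8, Nkx2-2 and Zfp488 and in 32.7% of all windows, and the pentamer AAGTG, part of the sequence bound by NK2 homeodomain proteins, in Nkx2-2 and Zfp536 and in 40.7% of all windows. The GC content of the windows was 56.4% to 66.8%, against a median of 52.4% over all of them. Such matches are letters in a window and not measured binding.

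Olig1 is the basic helix-loop-helix factor known for its role in maturation. Its normalized read counts were 10807, 11096 and 10660.0 at P18, 4761, 4993 and 5212 at P75, 2357, 2857 and 2533 at 6 months, and 2269, 2345 and 2684 at 24 months. The P18, P75 and 6 months libraries did not overlap, whereas the 6 and 24 months libraries did. From P18 to P75 Olig1 fell by 1.12 on the log2 scale (SE 0.09, adjusted p = 3.71e-07) and from P75 to 6 months by a further 0.95 (SE 0.09, adjusted p = 8.01e-07). From 6 to 24 months the change was -0.09 (95% interval -0.28 to 0.11, adjusted p = 0.539). At 24 months Olig1 was at 22.4% of its P18 mean, the lowest share of the 8 factors.

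Olig2, which initiates the lineage in the ventral neural tube, had normalized read counts of 1813, 1615 and 1785 at P18 and of 684, 764 and 648 at P75. It reached 575, 579.6 and 556 at 6 months and 403, 510.3 and 563 at 24 months. The drop was steep in the first interval and shallow after it, with a change of -1.31 from P18 to P75 (SE 0.11, adjusted p = 5.38e-07) and of -0.29 from P75 to 6 months (SE 0.11, adjusted p = 0.0353). The second call was lost without P75 replicate 2 (adjusted p = 0.142). From 6 to 24 months Olig2 was not called (-0.23, adjusted p = 0.155), although leaving out 24 months replicate 3 gave a call (-0.33, adjusted p = 0.0596), as did quantile normalization (adjusted p = 0.0935). Olig3, the third Olig gene, had mean normalized read counts of 2.23 ± 1.23 at P18 and 3.69 ± 0.81 at 24 months and was too low to be tested.

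Because both Olig genes were read in the same libraries, their ratio does not depend on how a library was scaled. The Olig1 to Olig2 ratio of normalized read counts was 5.96, 6.87 and 5.97 at P18, 6.96, 6.54 and 8.05 at P75, 4.10, 4.93 and 4.56 at 6 months, and 5.63, 4.60 and 4.77 at 24 months. As the exon lengths differ, the ratio is compared between ages and not read as a difference in level between the genes. All 6 libraries of the younger ages were above all 6 of the older ages. The ratio differed between the ages in an exact permutation test over all 369600 assignments of the libraries to ages (an F statistic, which has no direction, p = 0.00136 and adjusted p = 0.00546 over the 4 ratios tested).

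Of the SoxE factors, Sox10 had its largest change at the first interval. Its normalized read counts were 2789, 2531 and 2617 at P18, 1206, 1377 and 903 at P75, 1450.2, 1689 and 1252 at 6 months, and 968, 1049.9 and 1224 at 24 months. All P18 libraries were above all others, and P75 overlapped with 6 months. Sox10 fell by 1.21 on the log2 scale from P18 to P75 (SE 0.14, adjusted p = 8.12e-06). The rise from P75 to 6 months was 0.34 (SE 0.14, adjusted p = 0.046) and the fall from 6 to 24 months was -0.43 (SE 0.14, adjusted p = 0.0384). Both later calls rested on single libraries. The rise was not called without P75 replicate 3 (0.17, adjusted p = 0.272) or without 6 months replicate 2 (0.24, adjusted p = 0.203), and the later fall was not called without 6 months replicate 2 (adjusted p = 0.162), 24 months replicate 1 (0.143) or 24 months replicate 2 (0.110).

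Sox8, a close relative that overlaps in function with Sox10, descended more evenly. The normalized read counts were 2469, 2381 and 2627 at P18, 1402, 1770.0 and 1532 at P75, 1176, 1224 and 1169 at 6 months, and 1046, 918 and 1062 at 24 months. No age overlapped with the next. The changes were -0.67 from P18 to P75 (SE 0.09, adjusted p = 3.84e-05), -0.39 from P75 to 6 months (adjusted p = 0.00207) and -0.24 from 6 to 24 months (adjusted p = 0.0752). The last call was weak, since it was lost when any of the 6 months libraries or 24 months replicate 1 or 2 was left out (adjusted p = 0.110 to 0.282), with the replicate number as a block (just above 0.1) and with libraries scaled to the same total (0.124). Sox9, the third SoxE gene and a marker of progenitors and astrocytes, had mean normalized read counts of 599.5 ± 54.5, 563 ± 19.8, 579 ± 16.7 and 450.5 ± 90.0 at the 4 ages in order. Between P18 and P75 Sox9 was not called (-0.09, adjusted p = 0.578), and from P18 to 24 months it fell by 0.43 on the log2 scale (adjusted p = 0.00473), with a change of -0.38 from 6 to 24 months (adjusted p = 0.0339).

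The Sox10 to Sox8 ratio of normalized read counts was lowest at P75, at 0.860, 0.778 and 0.590. It was 1.13, 1.06 and 0.996 at P18, 1.23, 1.38 and 1.07 at 6 months, and 0.925, 1.14 and 1.15 at 24 months. The P75 libraries were below all 9 others. The ages differed in the exact permutation test (p = 0.00526, adjusted p = 0.0105 over the 4 ratios).

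**Figure D2:**
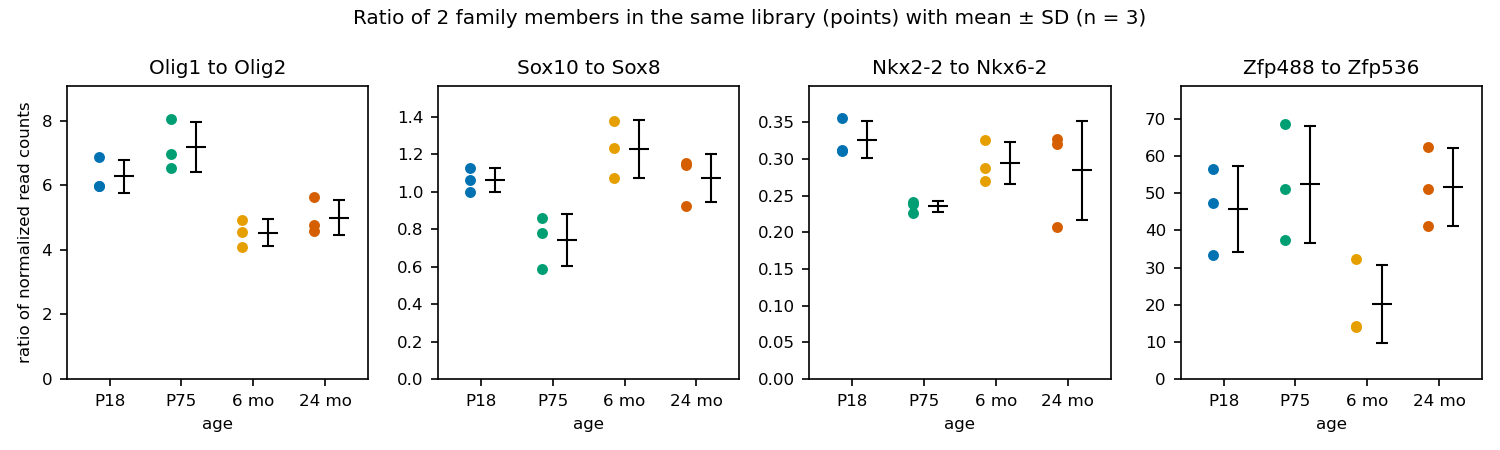
Ratio of the normalized read counts of 2 family members within the same library (linear axis from 0), with 1 point per library and the mean ± SD of 3 libraries beside them. The Olig1 to Olig2 ratio steps down between P75 and 6 months, the Sox10 to Sox8 ratio is lowest at P75, and the Zfp488 to Zfp536 ratio is lowest at 6 months.

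The homeodomain factor Nkx2-2, a repressor that promotes the exit from the precursor stage, had 70 to 199 reads behind each value. Its normalized read counts were 225, 215 and 199.9 at P18, 113, 129.8 and 132 at P75, 65.0, 98.5 and 82.7 at 6 months, and 69.4, 83.3 and 92.6 at 24 months. P18, P75 and 6 months did not overlap, and the last 2 ages overlapped. The change was -0.77 from P18 to P75 (SE 0.16, adjusted p = 0.00113) and -0.62 from P75 to 6 months (SE 0.16, adjusted p = 0.00382). From 6 to 24 months it was 0.00 with a 95% interval of -0.33 to 0.34, and its sign depended on the scaling. Its antisense neighbour Nkx2-2as stood at 108 ± 55.9, 75.3 ± 7.75, 98.0 ± 21.3 and 98.0 ± 15.4 at the 4 ages in order, and its part in the Nkx2-2 values was not tested.

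Nkx6-2, a factor of differentiating and mature oligodendrocytes, had most of its fall in the second interval. Its normalized read counts were 631, 690.4 and 639 at P18, 469, 544 and 580.4 at P75, 240.5, 303 and 287 at 6 months, and 335, 259 and 283 at 24 months. The step from P75 to 6 months was -0.94 (95% interval -1.19 to -0.69, adjusted p = 9.31e-06), and that from P18 to P75 was -0.30 (95% interval -0.55 to -0.05, adjusted p = 0.0511). The early call was lost without P18 replicate 2 (adjusted p = 0.148), without P75 replicate 1 (0.204) and with libraries scaled to the same total (-0.18, adjusted p = 0.282), a scaling that placed the median of all genes at 0.14 instead of 0.02. From 6 to 24 months no change was called (0.08, 95% interval -0.17 to 0.33, adjusted p = 0.680). The overlapping gene Inpp5a had mean normalized read counts of 1389 ± 156, 866 ± 26.4, 1815 ± 118 and 1347 ± 57.5 at the 4 ages in order, higher at 6 months than at P75, and its part in the Nkx6-2 values was not tested.

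The Nkx2-2 to Nkx6-2 ratio of normalized read counts was 0.327 ± 0.025, 0.236 ± 0.0078, 0.295 ± 0.028 and 0.285 ± 0.067 at the 4 ages in order (SD, n = 3). The ages were not told apart by the exact permutation test (p = 0.115, adjusted p = 0.115). This result rested on 24 months replicate 1, whose ratio of 0.207 was the lowest of all libraries. Without it the adjusted p was 0.00987. The nearest relatives of these factors in the precursor list, Nkx6-1 and Nkx2-9, were low, with mean normalized read counts at P18 of 3.99 ± 0.90 for Nkx6-1, which was too low to be tested, and 30.9 ± 13.7 for Nkx2-9.

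Zfp488, an oligodendrocyte-enriched zinc finger protein that cooperates with Olig2 in differentiation, followed another course than the 6 factors above. Its normalized read counts were 1298, 1362 and 1362 at P18, 1159, 1280.4 and 1216 at P75, 1018, 919 and 1038 at 6 months, and 1371, 1295 and 1445 at 24 months. The 6 months libraries were below all others, and P18 and 24 months overlapped. Zfp488 fell by 0.30 on the log2 scale from P75 to 6 months (SE 0.08, adjusted p = 0.00515) and rose by 0.47 from 6 to 24 months (SE 0.08, adjusted p = 0.00181). From P18 to P75 the change was -0.14 (adjusted p = 0.182), and from P18 to 24 months it was 0.03 with a 95% interval of -0.14 to 0.20. At 24 months it stood at 102% of its P18 mean. It was the only one of the 8 factors that rose from 6 to 24 months, and this call was kept in all 12 fits that left out 1 library. Only the fits without a library of 6 or 24 months could change the size of this rise. It ranged from 0.41 to 0.51 (highest adjusted p = 0.0123).

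Zfp536, a zinc finger repressor known from neuronal differentiation, was at the edge of detection, with 16 to 90 reads behind each value. Its normalized read counts were 27.3, 40.7 and 24.1 at P18, 31.1, 25.0 and 17.7 at P75, 73.1, 63.9 and 32.1 at 6 months, and 26.8, 31.4 and 23.1 at 24 months. Replicates 1 and 2 at 6 months were above all others, and replicate 3 at 6 months lay below P18 replicate 2. The rise from P75 to 6 months was 1.12 (SE 0.30, adjusted p = 0.00535) and was followed by a fall of -0.96 to 24 months (SE 0.30, adjusted p = 0.0367). The fall was not called without 6 months replicate 1 (adjusted p = 0.169), 6 months replicate 2 (0.131) or 24 months replicate 3 (just above 0.1). Between P18 and P75 the change was -0.31, with a 95% interval of -0.95 to 0.33 that is too wide to exclude a fall of the size seen for Nkx2-2. The Zfp488 to Zfp536 ratio was 13.9, 14.4 and 32.3 at 6 months and from 33.5 to 68.7 at the other ages, and the ages differed in the exact permutation test (p = 0.0238, adjusted p = 0.0317 over the 4 ratios).

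Set side by side, the intervals differed in how many factors moved and in which direction. From P75 to 6 months all 8 factors were called, 6 falling and 2 rising, while 29.4% of the genes tested fell and 31.2% rose. From 6 to 24 months 4 were called, with falls of Sox10, Sox8 and Zfp536 (12.7% of genes fell) and the rise of Zfp488 (16.6% rose). Leaving out 1 library moved this last count between 1 and 4. It was 1 without 6 months replicate 2, and 2 without 6 months replicate 1, 24 months replicate 1 or 24 months replicate 2. From P75 to 24 months 5 factors fell and Zfp488 rose by 0.17 (adjusted p = 0.094), where 26.1% of genes fell and 28.8% rose. The Zfp488 call was lost in 7 of the 12 fits without 1 library (P18 replicates 1 and 2, P75 replicates 1 and 3, 6 months replicate 3, and 24 months replicates 1 and 3, with a highest adjusted p = 0.271), with a replicate block (0.115) and with the same total (0.412). From P18 to 6 months 7 factors fell and Zfp536 rose, where 34.1% of genes fell and 35.1% rose, and the Zfp536 call was lost without 6 months replicate 1 (adjusted p = 0.145) or replicate 2 (0.104). Over all ages together, a moderated F test called all 8 factors, while it called 83.8% of the genes tested.

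**Figure D3:**
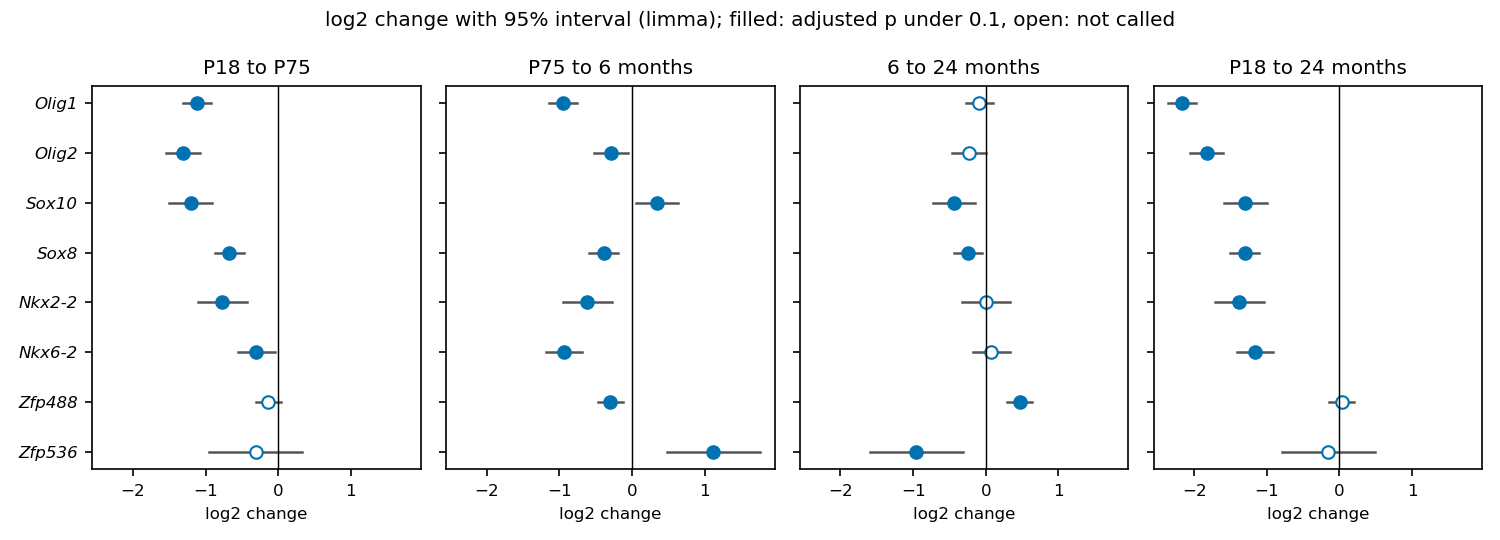
log2 change of each factor (second age minus first, on log2(normalized read count + 1)) with its 95% interval from the limma fit, for the 3 consecutive intervals and for P18 to 24 months. Filled points had an adjusted p under 0.1, and open points were not called. Most points lie left of 0 from P18 to P75 and from P18 to 24 months. From 6 to 24 months Olig1, Nkx2-2 and Nkx6-2 lie close to 0. The filled points of that interval are Sox10, Sox8 and Zfp536 to the left of 0 and Zfp488 to the right.

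The median change of the 8 factors was -0.72 on the log2 scale from P18 to P75 and 0.02 for all genes tested. From P75 to 6 months the median was -0.34 (all genes 0.01), and from 6 to 24 months it was -0.16 (all genes 0.03). From P18 to 24 months it was -1.30 (all genes -0.01). The comparisons share libraries and are not independent of each other. The 6 factors that fell from P18 to P75 and from P18 to 24 months kept this direction under every scaling tried.

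To set the levels of different genes side by side, counts were divided by the length of the merged exons, giving a normalized read count per kilobase. On this scale the order at P18 was Olig1 (5000 ± 102), Sox10 (975 ± 48.4), Sox8 (799 ± 39.9), Olig2 (713 ± 44.1), Nkx6-2 (343 ± 16.9), Zfp488 (312 ± 8.61), Nkx2-2 (74.1 ± 4.33) and Zfp536 (4.40 ± 1.26), and no neighbours in this order overlapped between libraries. At P75 the per-kilobase levels of Olig2 (287 ± 24.4), Zfp488 (283 ± 14.1) and Nkx6-2 (279 ± 29.8) overlapped, as did those of Sox8 and Sox10. At 24 months Zfp488 (319 ± 17.4 per kilobase) was near its P18 level and overlapped with Sox8, which had come down to 324 ± 25.3 per kilobase, and it lay above all Olig2 libraries (202 ± 33.4 per kilobase). Olig1 was the highest and Zfp536 the lowest at each of the 4 ages. At P18 the per-kilobase level of Olig1 ranked 257 of 14272 genes tested with a length, and at 24 months it ranked 1158.

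Other regulators of oligodendrocyte differentiation were read from a list of 13 genes. Of these, 3 fell and 1 rose from P18 to P75, with a median change of -0.07, and 9 fell and 1 rose from P18 to 24 months, with a median of -0.26. Over all genes tested 22.9% fell and 25.9% rose in the first comparison, a share of falls close to that of the list, and 34.3% fell and 34.7% rose in the second. Tcf7l2, a Wnt pathway factor of newly formed oligodendrocytes, went from 1520 ± 78.0 at P18 to 1237 ± 77.8 at P75, 865 ± 17.8 at 6 months and 856 ± 39.6 at 24 months in mean normalized read count, a change of -0.83 from P18 to 24 months. Myrf, listed under its older symbol Gm98 and known as a membrane-bound activator of myelin genes, had mean normalized read counts of 1380.1 ± 163, 1052 ± 93.6, 1793 ± 264 and 1411 ± 171 at the 4 ages in order. Like Sox10 it fell from P18 to P75 (-0.39) and rose from P75 to 6 months (0.76). From P18 to 24 months Myrf was not called (0.03, adjusted p = 0.834), whereas Sox10 fell (-1.30). A list of precursor and inhibitory factors held Id and Hes repressors and SoxC genes among others. Of its 15 genes tested, 7 fell and 8 were not called from P18 to P75, where 22.9% of all genes tested fell. From P18 to 24 months 11 fell and 4 were not called, where 34.3% of all genes tested fell. In this list Sox4 changed the most in both intervals, from 201 ± 45.5 at P18 to 80.3 ± 18.8 at P75 and 71.7 ± 8.17 at 24 months in mean normalized read count.

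Genes that the lineage factors are known to act on, and markers of the stages of the lineage, were set beside them. From P18 to P75, 10 of 12 myelin and lineage target genes fell and 2 were not called (22.9% of all genes tested fell), and Cnp, an enzyme of non-compact myelin, fell the most (-1.71). Most of the summed level of this list was Mbp, with a mean normalized read count of 1494400 ± 290360 of a summed 1748800 at 24 months. From P75 to 6 months 4 of the 12 target genes rose and 8 were not called, where 31.2% of all genes tested rose. All 8 markers of newly formed oligodendrocytes fell from P18 to P75, where 22.9% of all genes tested fell. All 8 also fell from P18 to 24 months, where 34.3% of all genes tested fell. The largest of these falls was that of Gpr17, a receptor of that stage, at -2.29 from P18 to P75 and -2.71 from P18 to 24 months. The summed level of these 8 markers was 9259 to 9865 at P18, 4173 to 4453 at P75, 3933 to 4325 at 6 months and 3296 to 3611 at 24 months. This sum was lower in every later library than at P18, as was each of the 6 factors that fell. Most of it was Fyn, with a mean normalized read count of 5807 ± 72.2 of a summed 9631 at P18. The single markers differed. From P75 to 6 months 2 rose and 2 fell, where 31.2% of all genes tested rose and 29.4% fell. From P18 to 6 months 7 fell and 1 was not called, where 34.1% of all genes tested fell. The part of newly formed oligodendrocytes in the changes of the factors was not tested.

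Of the 8 precursor markers, 2 fell and 1 rose from P18 to P75, where 22.9% of all genes tested fell and 25.9% rose. From P75 to 6 months 6 of the markers rose and 0 fell, where 31.2% of genes rose and 29.4% fell. From P18 to 24 months 3 rose and 0 fell, where 34.7% of genes rose and 34.3% fell. The summed level of the 8 precursor markers was 4403 to 4482 at P18, 4438 to 5369 at P75, 6927 to 7964 at 6 months and 6239 to 7152 at 24 months. Tnr changed the most at the early step (-0.57), and Ptprz1 over the whole range (1.13). Much of the course of the sum was that of Ptprz1 alone, whose mean normalized read count was 1539 ± 259 at P18 and 3979 ± 363 at 6 months. Pdgfra, the growth factor receptor of precursors, had mean normalized read counts of 662 ± 42.0 at P75 and 748 ± 34.4 at 24 months and was called neither from P18 to P75 nor from P18 to 24 months, while from P18 to 6 months it rose by 0.26 (adjusted p = 0.0296).

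**Figure D4:**
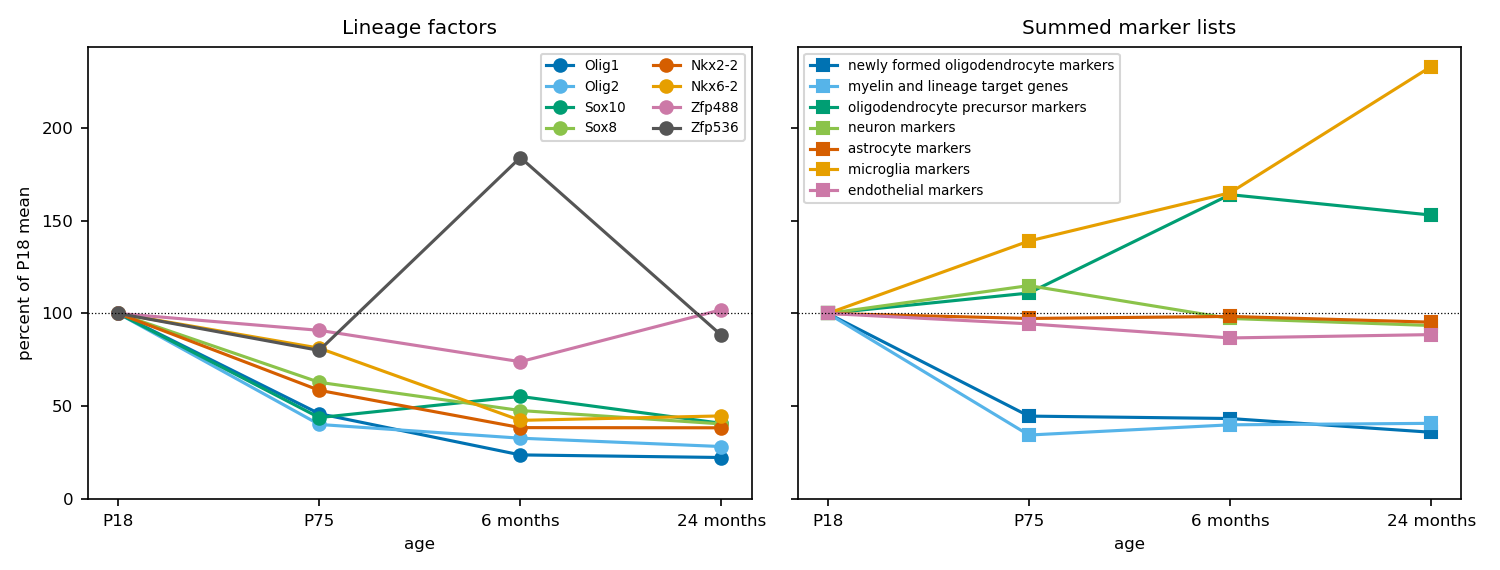
Mean level at each age as a percent of the P18 mean (linear axis from 0), for the 8 lineage factors on the left and for the summed normalized read counts of 7 marker lists on the right. The 6 factors that fell end between 22.4% and 44.8%. The newly formed oligodendrocyte markers, whose sum is mostly Fyn, end at 36.0%. The myelin and lineage target genes, whose sum is mostly Mbp, end at 40.8%, whereas the microglia markers reach 233%.

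Markers of other cells were read in the same way, against 22.9% of all genes tested that fell and 25.9% that rose from P18 to P75, and 34.3% that fell and 34.7% that rose from P18 to 24 months. Of the 8 neuron markers 2 rose and 3 fell in the first comparison, and 3 rose and 4 fell in the second. The summed level of the 8 neuron markers ranged over 162280 to 199090 at P18, 192700 to 220540 at P75, 172320 to 176060 at 6 months and 164510 to 169330 at 24 months. Most of this sum at P18 was Snap25, with a mean of 109010 ± 11310 of a summed 178810, so it does not show the course of the single markers. From P75 to 6 months 4 of the 8 neuron markers rose and 3 fell, where 31.2% of all genes tested rose and 29.4% fell. Of the neuron markers, Stmn2 fell the most from P18 to P75 (-0.62), and Syt1 rose the most from P18 to 24 months (2.29). The summed level of the 8 astrocyte markers was 97458 to 118590 over all ages. Gfap (-0.87) changed the most from P18 to P75, where 1 rose and 2 fell. Slc1a3 (0.91) changed the most from P18 to 24 months, where 4 rose and 2 fell. Of the 8 microglia markers 5 rose from P18 to P75 and 7 from P18 to 24 months, and their summed level was 3817 to 5123 at P18 and 10035 to 11520 at 24 months. The 6 endothelial markers summed to 416 to 576. The largest change among them from P18 to P75 was that of Cdh5 (0.36, not called), and from P18 to 24 months 3 rose and 2 fell, with the largest change that of Flt1 (0.77). Of 6 nuclear RNAs, 2 rose and 1 fell from P18 to P75 and 4 rose and 2 fell from P18 to 24 months, and Neat1 changed the most in both (2.56 and 2.84). No marker of these lists was at 0 in every library. The part of such other cells in the values of the lineage factors was not tested.

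The genes whose log2 profile over the 12 libraries was most like that of a factor were listed among those with a mean of at least 100. For Olig1 they were Hn1 (Pearson's r = 0.991) and Stradb (0.989), for Olig2 Elavl3 (0.995) and Arl8a (0.992), for Sox10 Calb2 (0.981) and Ap3s2 (0.980), and for Sox8 Eri3 and Eif2b1 (both 0.988). Phf5a (0.991) and Ube2q1 (0.984) were nearest to Nkx2-2, and Abhd11 (0.991) and Arpc1a (0.988) to Nkx6-2. The zinc finger genes had less similar partners, namely Atp6v0e (0.908) and Ndn (0.906) for Zfp488 and Mtmr9 (0.932) and 4930402H24Rik (0.918) for Zfp536. Between the factors themselves r was 0.981 for Olig1 with Nkx2-2, 0.955 for Olig1 with Olig2 and -0.70 for Zfp488 with Zfp536. After the age means were subtracted, r was 0.911 for Olig1 with Nkx2-2, 0.395 for Olig1 with Olig2 and -0.41 for Zfp488 with Zfp536. The libraries share age, depth and scaling, so these values describe similarity and carry no test.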

How the data were processed

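Myelin RNA from 12 libraries, 3 at each of 4 ages, was read from 1 deposited table. According to the paper and the submitters' processing notes, the authors aligned Illumina reads to mm9 with TopHat (TopHat2 2.0.8 in the notes), counted them on genes with HTSeq 0.5.4p1 and scaled each library by its DESeq size factor. The signal deposited is this normalized read count, not corrected for length. In each library 100% of the values checked were whole multiples of the value of 1 read, within a tolerance of 0.0055 in normalized read count. Genes without reads and the highest values were left out of this check. The reads recovered in this way gave the depth. The paper states separate mice for the 6 months libraries. For P18, P75 and 24 months no source used here says so, and p-values measure only the spread between libraries, which may be technical.

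Ages were compared with limma 3.58.1 (trend, R 4.3.3) on log2(normalized read count + 1) for 14634 genes with a mean of at least 10, with Benjamini-Hochberg adjustment over all of them. Fold changes on this scale understate those of low genes. Ratios were tested by exact permutation (Python 3.11.15, numpy 2.4.6), adjusted over the 4 ratios and called at the same 0.1. Gene positions and merged exon lengths are from GENCODE vM1, which matched 20939 of 21937 symbols. On simulated data limma recovered 99.5% of 200 genes changed by a fold of 3 from P18 to P75, with 24 others of 14634 called. The factors changed less than this between consecutive ages, at most by a fold of 2.49 (Olig2 from P18 to P75). The recovery of such smaller changes was not simulated. Same-numbered libraries at P75 and 6 months deviated together (correlations of deviations 0.161, 0.101 and 0.187), a pairing known only from the replicate numbers, and a fit of these libraries with the pair as a block again called 8 factors. In the other comparisons the numbers did not pair the libraries.

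The genes named are the 8 factors, Sox9, Olig3, Nkx6-1, Nkx2-9, Myrf and Tcf7l2, markers that check the tissue, in each list the gene with the largest change from P18 to P75 and from P18 to 24 months, and the 2 genes most similar to each factor. Inpp5a and Nkx2-2as were added because they overlap a factor, and Fyn because it made up most of the sum of its list. Some genes that the rule names are not reported here. The members and lists were chosen with earlier results of these data known. The alternatives were pseudocounts of 0.5 and 10, other filters and scalings, a fit of only the 2 ages, a replicate block, edgeR 4.0.16 and DESeq2 1.42.0 on the recovered reads, an adjusted p under 0.05, and each library left out. A scaling to the same total without Mbp and a block within the 2 ages were chosen after seeing the data.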

Additional observations from a re-analysis of the deposited data

How the results depend on the processing

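Leaving out 1 library changed the count of called factors from 6 to 24 months to between 1 and 4, and the adjusted p of the Nkx2-2 to Nkx6-2 ratio to between 0.00987 and 0.238. The other counts stayed within 1.5 times and the other 3 ratios on their side of the threshold under all alternatives run. With the replicate block the 4 ratios had adjusted p = 0.0521, 0.0521, 0.158 and 0.0532, and the counts of called factors kept their size except from 6 to 24 months (3 instead of 4) and from P75 to 24 months (5 instead of 6). Signs turned only for changes that were not called. Nkx2-2 from 6 to 24 months gave -0.035 with the same total, -0.034 with the same total without Mbp and -0.11 with quantile normalization, Zfp488 from P18 to 24 months gave -0.036 with the same total without Mbp, and Zfp536 from P75 to 24 months gave -0.002 with quantile normalization. Without single libraries these changes ranged from -0.15 to 0.14 (Nkx2-2), from -0.023 to 0.16 (Nkx6-2 from 6 to 24 months), from -0.008 to 0.071 (Zfp488), from -0.30 to 0.064 (Zfp536 from P18 to 24 months), from -0.26 to 0.043 (Sox10 from P75 to 24 months) and from -0.051 to 0.34 (Zfp536 from P75 to 24 months). Quantile normalization moved the median of all genes from P18 to 24 months to -0.11. With a mean of at least 100 Zfp536 was not tested. Of 576 values of single factors without 1 library, 541 kept direction and call. Leaving out a library of an age outside the comparison could not change the log2 value, only the adjusted p. Such fits kept the direction by construction. Depth limits Zfp536 most, and intervals cover the spread of 3 libraries only.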
